A study of Mus musculus with 10 samples.

Results

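The 10 genes described here encode AP-1 proteins and close relatives of the bZIP class: Jun, Junb, Jund, Fos, Fosb, Fosl1, Fosl2, Batf, Batf3 and Atf3. ChIP-seq, which sequences the DNA that an antibody pulls down with a protein, was used to measure where p65 (RelA) of the transcription factor NF-kB bound near them. The entries of 4 lists of p65 peaks were taken where their summit, the position of highest signal, lay inside 1 of these genes, or within 50 kb with it as the nearest protein-coding gene body. These were 71 of the 26132 entries, 8 of 3132 in unstimulated Tconv, 20 of 6480 in stimulated Tconv, 10 of 3442 in unstimulated Treg and 33 of 13078 in stimulated Treg. The genes were named by their family, with earlier results of these data known.

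Tconv are conventional T cells and Treg are regulatory T cells, the subset that restrains immune responses. Spleens and lymph nodes of C57BL/6 mice were the source of both, with a method of isolation not given in the sources used here. Stimulated groups spent 3 h in wells with bound anti-CD3, which engages a part of the T cell receptor complex, and with soluble anti-CD28, which engages a co-stimulatory receptor. IL-2 was at 2 ng/ml in the Tconv culture and at 10 ng/ml in the Treg culture, so that cell type and IL-2 dose cannot be told apart after stimulation. The culture of the unstimulated cells is not given, so stimulation cannot be told apart from culture and IL-2 either. Each group had 2 libraries, and 2 input libraries held mixed chromatin of both cell types. Since the authors made 1 peak list per group from both libraries, the values have no replicate spread and groups were not tested against each other. Whether the libraries of a group came from separate mice is not stated, and library depth is unknown. The lists differ in length and in their weakest entry, with a lowest −log10 p of 13.3 in unstimulated Tconv, 38.1 in stimulated Tconv, 15.1 in unstimulated Treg and 26.6 in stimulated Treg. A gene without a region is therefore one with no entry that passed the authors' threshold in that list. At the Treg marker genes Foxp3, Ikzf2, Il2ra and Ctla4, unstimulated Tconv had a region at 0 of 4 genes, stimulated Tconv at 2, unstimulated Treg at 2 and stimulated Treg at 4. Of the T cell genes Cd3d, Cd3e, Cd4 and Cd8a, 1 had a region in unstimulated Tconv, 2 in stimulated Tconv, 1 in unstimulated Treg and 3 in stimulated Treg. Cd79a, a B cell gene, had a region of 6.47-fold in unstimulated Treg alone, and the myeloid genes Lyz2, Csf1r and Itgax had none in any list. Of 2 natural killer cell genes, Klrb1c had a region in both stimulated lists. Binding at a gene is not its expression, so these regions do not check the identity of the cells.

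AP-1 is a family of dimers of Jun proteins with Fos proteins or with each other, joined through a leucine zipper next to a basic stretch that binds DNA. Signals from the T cell receptor and CD28 induce several of these genes within an hour and activate their products through MAP kinases, and AP-1 then acts with NFAT at cytokine genes. BATF proteins pair with Jun proteins and bind composite sites together with IRF4, which is known for its part in effector T cells and in effector Treg. The same receptor signals free p65 from its inhibitor IκB and let it enter the nucleus.

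The stretches directly upstream of the start sites are shown first, because stimulated regions covered most of them. In stimulated Treg a region touched the promoter of 7 of the 9 genes with an entry in RefSeq's promoter table (assembly GRCm38.p6, numbered as mm10). The window runs from 250 bases before to 50 after the start, and 19.8% of all 21263 such promoters were touched in that list. The count was 5 of 9 in stimulated Tconv (13.0% of all promoters), 2 of 9 in unstimulated Tconv (11.5%) and 2 of 9 in unstimulated Treg (12.3%). The 250 bases before the start of 3 Fos family genes are printed 5′ to 3′ along the gene, with capitals for matches to the kB consensus, the 10-base motif of NF-kB dimers. They are Fos at chr12:85473640-85473889 (plus strand), Fosb at chr7:19310046-19310295 (minus strand) and Fosl2 at chr5:32136222-32136471 (plus strand).
Fos: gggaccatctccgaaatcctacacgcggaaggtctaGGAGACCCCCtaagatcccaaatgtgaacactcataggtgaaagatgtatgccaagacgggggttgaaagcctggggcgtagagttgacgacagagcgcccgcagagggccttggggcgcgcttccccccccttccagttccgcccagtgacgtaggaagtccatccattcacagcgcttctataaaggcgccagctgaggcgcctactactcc
Fosb: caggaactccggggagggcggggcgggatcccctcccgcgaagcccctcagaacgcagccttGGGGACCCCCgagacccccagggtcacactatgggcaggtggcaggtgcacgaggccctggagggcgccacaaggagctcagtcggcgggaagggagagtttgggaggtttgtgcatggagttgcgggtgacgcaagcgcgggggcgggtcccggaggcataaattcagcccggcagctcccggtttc
Fosl2: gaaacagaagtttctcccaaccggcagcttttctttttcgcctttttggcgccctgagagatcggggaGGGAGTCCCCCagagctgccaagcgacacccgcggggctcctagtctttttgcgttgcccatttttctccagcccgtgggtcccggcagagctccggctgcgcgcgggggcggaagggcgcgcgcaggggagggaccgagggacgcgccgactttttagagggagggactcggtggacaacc

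The kB consensus was found on either strand in these 3 promoters and in none of the other 6, against 9.25% of all promoters. With the start base as 0, the match in Fos runs from -214 to -205, between the promoter summits of stimulated Tconv at -234 and stimulated Treg at -180. The match in Fosb runs from -188 to -179, and the strongest summits there lay at -357, -339, -359 and -338 in unstimulated Tconv, stimulated Tconv, unstimulated Treg and stimulated Treg. Fosl2 has 2 overlapping matches from -182 to -172, and its nearest stimulated summits lay outside the window, at -836 in Tconv and -926 in Treg. The AP-1 motif (TGANTCA), the cAMP response element (TGACGTCA) and the CArG box of serum response factor were in 0 of the 9 promoters, against 6.99%, 2.23% and 1.52% of all promoters. These letter matches describe the window and say nothing of binding.

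The promoters of Jun, Junb, Batf and Atf3 held a stimulated Treg summit, at -242, -59, -158 and -174, and no match to the 4 motifs. Shown are the 2 of them that held a stimulated Tconv summit as well. Junb is printed at chr8:84978749-84978998 (minus strand) and Batf at chr12:85686470-85686719 (plus strand), both 5′ to 3′ along the gene. Capitals mark the 21 bases around the stimulated Treg summit.
Junb: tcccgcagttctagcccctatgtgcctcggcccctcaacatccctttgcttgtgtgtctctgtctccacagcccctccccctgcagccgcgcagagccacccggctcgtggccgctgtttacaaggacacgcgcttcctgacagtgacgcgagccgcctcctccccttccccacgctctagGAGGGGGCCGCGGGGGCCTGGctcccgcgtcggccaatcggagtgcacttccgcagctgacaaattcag
Batf: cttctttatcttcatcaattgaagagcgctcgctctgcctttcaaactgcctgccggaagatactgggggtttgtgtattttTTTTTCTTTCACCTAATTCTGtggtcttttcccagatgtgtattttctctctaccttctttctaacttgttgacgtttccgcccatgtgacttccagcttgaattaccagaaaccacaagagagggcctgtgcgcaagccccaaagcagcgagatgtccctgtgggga

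Entries that overlapped within a list were joined to 1 region, read at the summit of highest −log10 p, called the strongest. Regions were found at 7 of the 10 genes in stimulated Tconv and at 8 in stimulated Treg, where 16.5% and 25.2% of all 21887 protein-coding genes had one. Without stimulation the count was 5 of 10 in each cell type, against 12.5% of all genes in Tconv and 13.4% in Treg. Fosl1 and Batf3 had no region in any list. The regions near the genes numbered 5 in unstimulated Tconv, 17 in stimulated Tconv, 6 in unstimulated Treg and 26 in stimulated Treg. Merged across the lists they formed 24 loci. Of these, 10 were in both stimulated lists alone, 7 in stimulated Treg alone and 4 in all 4 lists, while the other 3 had a single unstimulated list among theirs. Of all 11923 merged loci, 27.5% were in both stimulated lists alone, 41.1% in stimulated Treg alone and 13.8% in all lists.

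**Figure D1:**
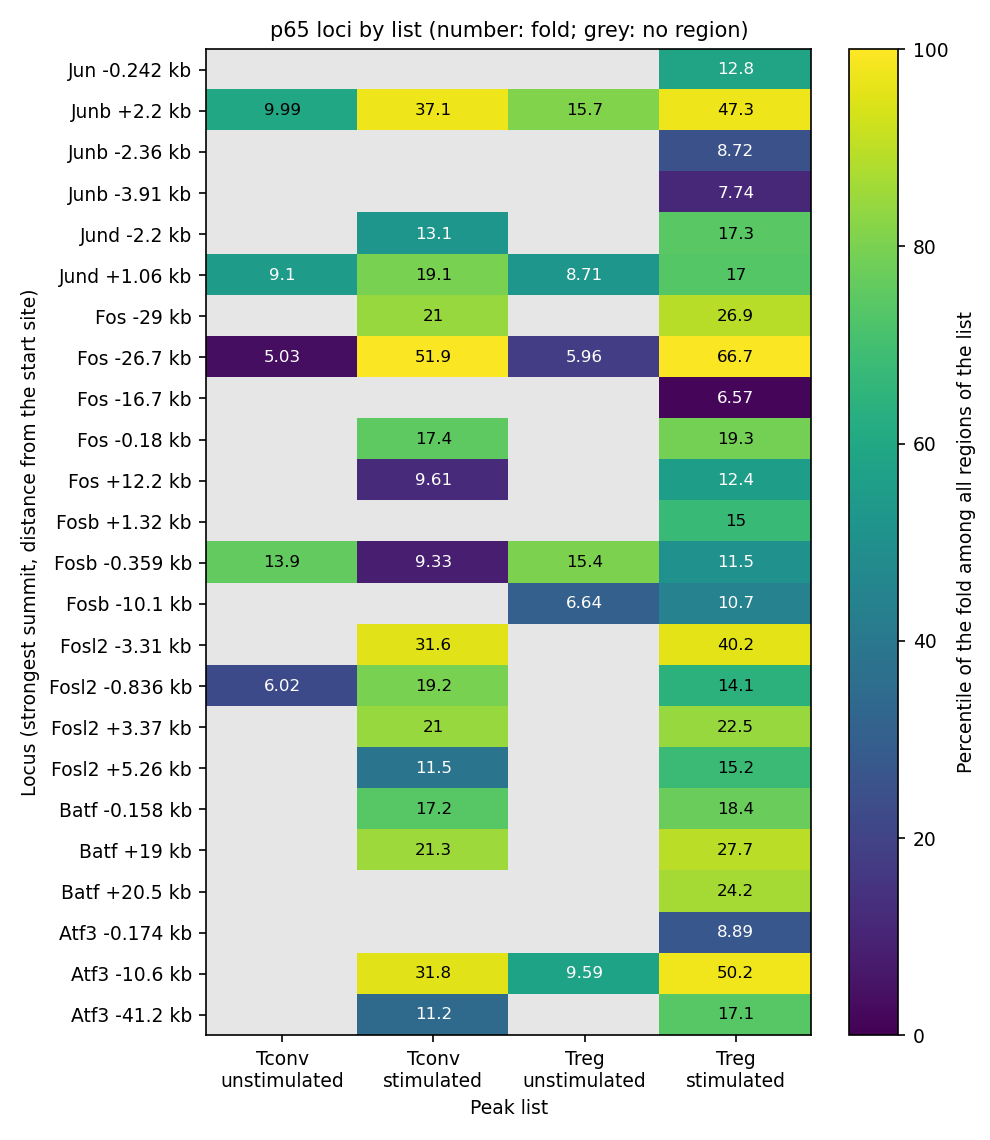
Each row is 1 of the 24 loci, named by gene and by the distance in kb of its strongest summit from the start site, and each column is a peak list. Numbers give the fold enrichment of the strongest summit over its local background, colour gives its percentile among all regions of that list, and grey means no region. The Fos locus at -26.7 kb is at the 3.88th percentile in unstimulated Tconv, at the 18.3rd in unstimulated Treg and near the top of both stimulated lists.

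Among the Jun genes, Junb and Jund had a region in every list and Jun in stimulated Treg alone. Jun encodes c-Jun, the partner of Fos proteins in the classical AP-1 dimer. Its region (chr4:95049119-95054503) ran over the start site and nearly all of the gene, and its summit lay 0.242 kb upstream of the start, with 12.8-fold enrichment over the local background, as the authors' peak caller gave it. This is the 58.4th percentile of the fold among the regions of that list, and its −log10 p of 62.2 is above the lowest value in the stimulated Tconv list. The next summits with Jun as nearest gene lay 109 kb away, outside the 50 kb limit, with 10.4-fold in stimulated Treg and 4.98-fold in unstimulated Tconv. The farthest summits inside the limit lay 41.2 kb from Atf3, with 11.2-fold in stimulated Tconv and 17.1-fold in stimulated Treg.

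Junb encodes JunB, a Jun protein that pairs with BATF in T cells. Its strongest summit was on the far side of the gene in all lists, 0.255 to 0.365 kb beyond the end of transcription. It had 9.99-fold enrichment in unstimulated Tconv, 37.1-fold in stimulated Tconv, 15.7-fold in unstimulated Treg and 47.3-fold in stimulated Treg. Within their lists these values stood at the 60.1st, 97.4th, 81.0th and 97.6th percentile. A second summit at the start site was listed in the stimulated groups alone, with 10.5-fold in Tconv and 12.6-fold in Treg, inside the same region. Stimulated Treg added weak regions 2.36 kb (8.72-fold) and 3.91 kb (7.74-fold) upstream. Folds and percentiles place a region within its own list and are not compared as a change between lists, which differ in length and in their lowest value.

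Jund encodes JunD, the Jun protein present in many resting cells. One region ran over most of the gene in all lists, with several summits in each. Without stimulation the strongest of them lay at the far end, 3.00 kb from the start in Tconv (9.10-fold) and 3.02 kb in Treg (8.71-fold). After stimulation it lay inside the gene, 1.06 kb from the start in Tconv (19.1-fold) and 1.31 kb in Treg (17.0-fold), and the summit at the far end was still listed, with 11.4-fold and 10.3-fold. A separate region about 2.2 kb upstream was in both stimulated lists, with 13.1-fold in Tconv and 17.3-fold in Treg, and in neither unstimulated list. The distances at Jund rest on the start site in RefSeq's promoter table, which was taken as given. So does its promoter window, which no list covered.

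Among the Fos genes, Fos had the strongest stimulated region of all 10 genes, and it lay far upstream. Fos encodes c-Fos, an immediate-early partner of Jun proteins. The summit lay 26.7 kb upstream of the start in both stimulated lists, with 51.9-fold enrichment in Tconv (chr12:85446788-85448109) and 66.7-fold in Treg (chr12:85446640-85447673). By fold these regions ranked 28th of 5734 in stimulated Tconv and 56th of 11077 in stimulated Treg. The same place held a region in each unstimulated list, with 5.03-fold in Tconv, at the 3.88th percentile of its list, and 5.96-fold in Treg, at the 18.3rd percentile. Both stimulated lists also had a region 28.9 to 29.0 kb upstream (21.0-fold in Tconv and 26.9-fold in Treg), one at the promoter (17.4-fold and 19.3-fold) and one 12.2 kb downstream of the start (9.61-fold and 12.4-fold). A region 16.7 kb upstream was listed in stimulated Treg alone, with 6.57-fold, at the 1.92nd percentile. The unstimulated lists held no region at the Fos promoter.

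Fosb encodes FosB, another immediate-early Fos protein. Its promoter region was in all lists, with 13.9-fold in unstimulated Tconv, 9.33-fold in stimulated Tconv, 15.4-fold in unstimulated Treg and 11.5-fold in stimulated Treg. It stood at the 75.8th and 80.1st percentile of the unstimulated lists and at the 8.58th and 50.4th percentile of the stimulated lists. A region about 10 kb upstream was in both Treg lists (6.64-fold unstimulated and 10.7-fold stimulated) and in neither Tconv list. A region inside the gene, 1.32 kb from the start, was in stimulated Treg alone (15-fold). It ended at chr7:19309017, close to the stimulated Tconv promoter region, which began at chr7:19309055. Whether it overlapped a Tconv region therefore rests on where these regions end. The only summit of that Tconv region lay at chr7:19310384, upstream of the start. Stimulated Tconv listed no summit inside the Treg region.

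Fosl2 encodes Fra-2, a Fos protein known for late rather than immediate induction. It had 4 regions in each stimulated list. The strongest, 3.3 kb upstream, had 31.6-fold in Tconv and 40.2-fold in Treg, at the 95.5th and 95.9th percentile. A pair of places inside the gene, 3.37 kb and about 5.2 kb from the start, had 21.0-fold and 11.5-fold in Tconv and 22.5-fold and 15.2-fold in Treg. The region just upstream of the start (19.2-fold in Tconv and 14.1-fold in Treg) was the only one at Fosl2 with an unstimulated counterpart, of 6.02-fold in Tconv, while unstimulated Treg had none.

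For Fosl1, which encodes Fra-1, the nearest summit of any list lay 14.2 kb away and was assigned to AI837181. Within 50 kb of it were regions of AI837181 (5.52-fold) and Drap1 (5.97-fold) in unstimulated Treg and of Mus81 (10.1-fold) and Cfl1 (7.11-fold) in stimulated Treg. All 4 lay nearer to those genes than to Fosl1.

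**Figure D2:**
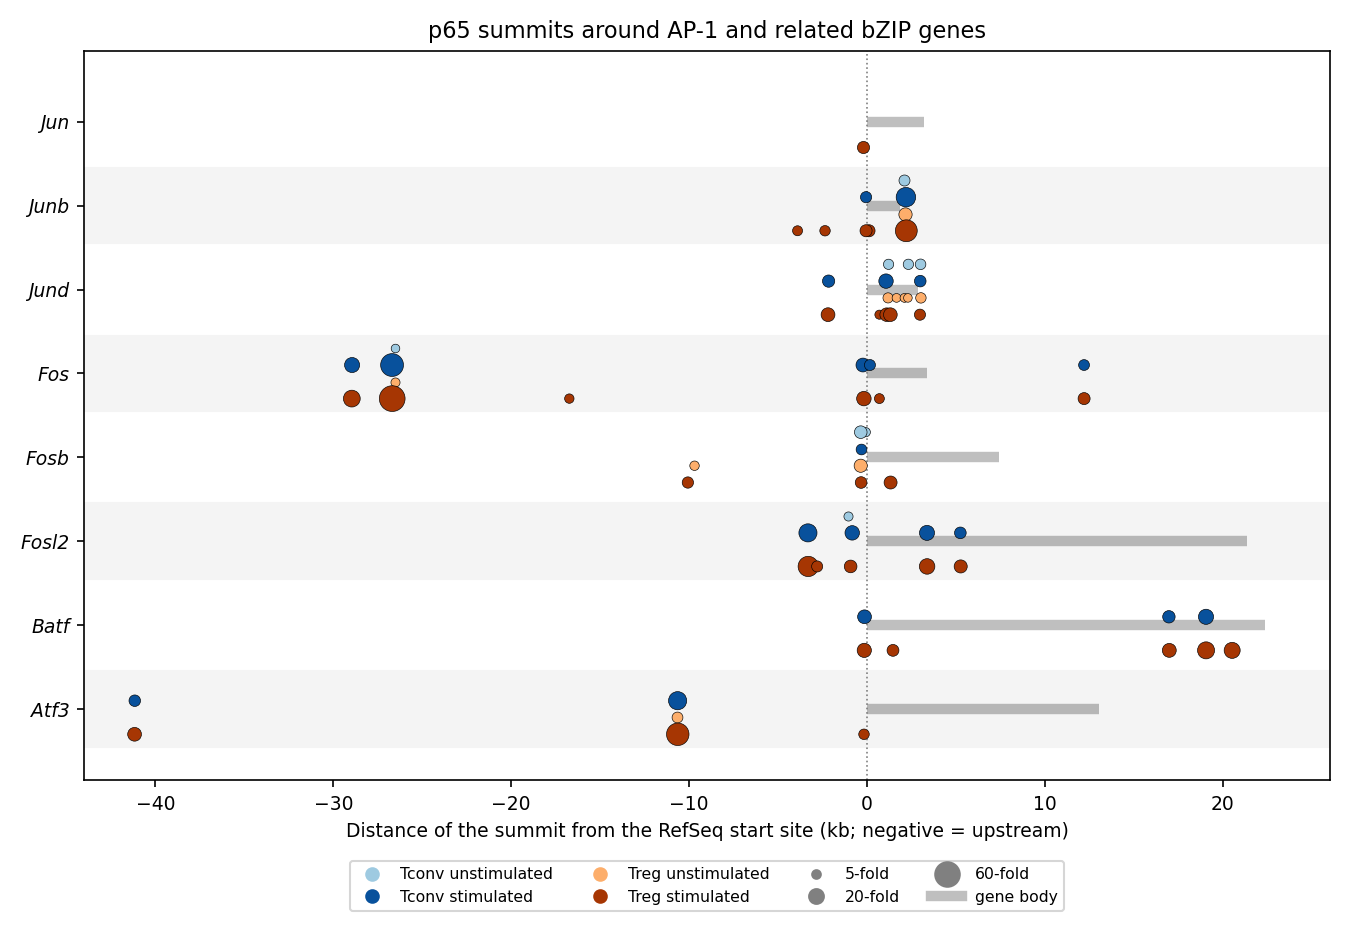
Summits around the start site of each of the 8 genes with a region, with the distance in kb on the horizontal axis (negative is upstream) and 1 row of points per list and gene. Point area grows with fold enrichment and grey bars are gene bodies drawn in the direction of transcription. The strongest summits lie upstream in Fos, Fosl2 and Atf3, and beyond the far end of the gene in Junb.

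The genes of the BATF and ATF3 branch had few unstimulated regions. Batf had a region in neither unstimulated list but 3 regions in Tconv and 5 in Treg after stimulation. The promoter summit had 17.2-fold in Tconv and 18.4-fold in Treg. Treg had a separate region with its summit 1.46 kb from the start (12.0-fold), which the Tconv promoter region also overlapped. The counts of 3 and 5 thus differ partly in how this stretch was divided into regions. Inside the gene, a summit 17.0 kb from the start had 13.5-fold and 17.6-fold, and a summit 19.0 kb from the start had 21.3-fold and 27.7-fold. A further region 20.5 kb from the start (chr12:85706920-85707683) was in stimulated Treg alone, with 24.2-fold, at the 86.5th percentile, and a −log10 p of 155. Of the 7 loci in stimulated Treg alone it had the highest fold.

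Fos and Batf lie 209 kb apart on chromosome 12 with 1 protein-coding gene between them, Jdp2, which encodes a bZIP repressor of AP-1. Jdp2 had no region in any list. Batf3, which encodes a BATF protein known from dendritic cells, had no summit nearer than 74.6 kb.

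Atf3 encodes ATF3, a stress-induced bZIP protein. Its strongest region lay 10.6 kb upstream in both stimulated lists, with 31.8-fold in Tconv and 50.2-fold in Treg, at the 95.6th and 98.0th percentile. The unstimulated Treg list had a region there with 9.59-fold, and unstimulated Tconv had none. A region 41.2 kb upstream was in both stimulated lists (11.2-fold and 17.1-fold), and one at the start site was in stimulated Treg alone (8.89-fold).

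**Figure D3:**
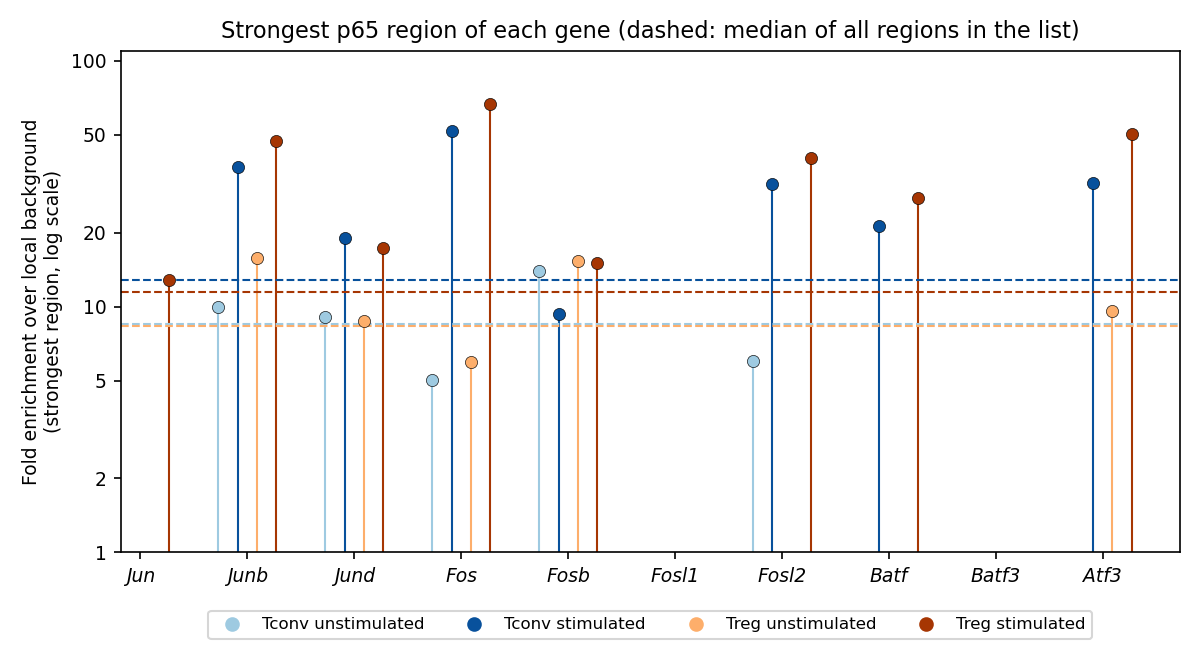
Fold enrichment over local background (log scale) of the strongest region of each gene in each list, with the median of all regions of each list as a dashed line. The values for Fos are 5.03, 51.9, 5.96 and 66.7 in unstimulated Tconv, stimulated Tconv, unstimulated Treg and stimulated Treg, and Fosl1 and Batf3 have no point.

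As a group, the stimulated regions near these genes were mostly in the upper part of their lists. Of the 17 in Tconv 13, and of the 26 in Treg 21, exceeded the median fold of the list, with medians of 19.1 and 17.0 against 12.8 and 11.5 over all regions. Without stimulation it was 3 of 5 regions in Tconv (median 9.10 against 8.49) and 4 of 6 in Treg (9.15 against 8.30). These regions share genes and chromosomal neighbourhoods and are not independent of each other.

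By position, the stimulated regions near the genes lay outside genes and over 1 kb from the ends of any protein-coding gene in 7 of 17 cases in Tconv (41.2%) and 11 of 26 in Treg (42.3%), against 20.4% and 21.7% of all regions with a gene within 50 kb. Within 1 kb of a gene end were 5 of 17 and 7 of 26 (29.4% and 26.9%, against 41.6% and 35.6%). With so few regions these shares were not tested.

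The comparison of stimulated with unstimulated lists gave shares near those of all regions. Of the 17 stimulated Tconv regions 12 (70.6%, 95% Wilson interval 46.9 to 86.7%) were overlapped by no unstimulated region, against 67.4% of all stimulated Tconv regions. In Treg it was 20 of 26 (76.9%, 57.9 to 89.0%), against 77.3%. The intervals cover counting error over regions alone. Both backgrounds lie inside these intervals. In the other direction, each of the 5 unstimulated Tconv regions and 6 unstimulated Treg regions was overlapped by a stimulated region by at least 1 bp. Over all regions 36.3% and 21.6% had none, and the Wilson intervals for these counts of 0 reach to 43.4% and 39.0%. Where the overlap had to be at least 50% of both regions, 15 of the 17 stimulated Tconv regions (88.2%, against 74.7% of all) and 21 of the 26 stimulated Treg regions (80.8%, against 81.2%) had no unstimulated counterpart. By the same rule 3 of the 5 unstimulated Tconv regions (60%, against 51.0% of all) and 1 of the 6 unstimulated Treg regions (16.7%, against 35.2%) had no stimulated one.

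Between the stimulated lists, each of the 17 Tconv regions had a Treg counterpart (interval for a share without one 0 to 18.4%), where 4.15% of all stimulated Tconv regions had none. Of the 26 Treg regions 8 (30.8%, 16.5 to 50%) lacked a Tconv counterpart, against 49.3% of all, a background that is inside the interval. These 8 lay at 8 loci: the start of Jun, 2 upstream of Junb, Fos at -16.7 kb, 2 at Fosb, Batf at +20.5 kb and the start of Atf3. At 4 of them, both Junb loci, Fos at -16.7 kb and Atf3, the −log10 p of 28.4 to 35.4 was below 38.1, the lowest value in the stimulated Tconv list. The other 4, Jun (62.2), Fosb at +1.32 kb (78.1), Fosb at -10.1 kb (51.1) and Batf (155), were above it. Of these, Fosb at +1.32 kb ended just short of the stimulated Tconv region at the Fosb promoter. That Tconv region had its only summit upstream of the start. How far the depth of the libraries enters these differences was not tested.

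Without stimulation, 2 of the 6 Treg regions (33.3%, 9.68 to 70.0%) lacked a Tconv counterpart, against 20.6% of all: Atf3 at -10.7 kb (9.59-fold) and Fosb at -9.70 kb (6.64-fold). Of the 5 Tconv regions 1 (20%, 3.62 to 62.4%) lacked one in Treg, against 13.9% of all: Fosl2 at -1.09 kb (6.02-fold). Both backgrounds are inside the intervals.

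Other genes of the pathway and family were read in the same way. Over all protein-coding genes, 16.5% had a region in stimulated Tconv and 25.2% in stimulated Treg. Without stimulation it was 12.5% in Tconv and 13.4% in Treg. A list of 29 genes that act upstream of AP-1 held MAP kinases, their activators and target factors such as SRF and the Elk proteins. Of these 29 genes, 15 (51.7%) had a region in stimulated Tconv and 20 (69.0%) in stimulated Treg. Without stimulation 8 (27.6%) had one in Tconv and 11 (37.9%) in Treg. In stimulated Treg these were led by Map3k8, which encodes the kinase TPL2 (60.7-fold), Elk3, which encodes an Ets factor that works with SRF (55.6-fold), and Map3k1, a kinase gene upstream of JNK (40.8-fold). Map3k8, Elk3 and Map3k1 also had stimulated Tconv regions, with up to 39.2-fold, 46.9-fold and 21.4-fold.

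Of 42 other bZIP genes, 11 had a region in unstimulated and 11 in stimulated Tconv, 8 in unstimulated and 19 in stimulated Treg. Bach2, which encodes a repressor that competes with AP-1 in T cells, had 20 regions in stimulated Tconv and 26 in stimulated Treg, against 4 and 2 without stimulation. Over all genes with a region, the mean number of regions was 1.49 in stimulated Tconv and 1.86 in stimulated Treg. Without stimulation it was 1.06 in Tconv and 1.07 in Treg. The strongest region of Bach2 had 53.9-fold in stimulated Treg and 38.1-fold in stimulated Tconv. Creb3l2, a gene for a membrane-bound bZIP factor (39.1-fold in stimulated Treg and 10.9-fold in stimulated Tconv), and Crem, which encodes a cAMP response factor (37.2-fold and 20.6-fold), followed. The share of the 42 genes with a region was 26.2% in stimulated Tconv and 45.2% in stimulated Treg, against 70% and 80% of the 10 genes. Over all protein-coding genes it was 16.5% and 25.2%.

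The Egr and Nr4a genes, which encode other immediate-early factors of T cell activation, had a region at 6 of 7 in each stimulated list, and at 2 of 7 in unstimulated Tconv and 3 of 7 in unstimulated Treg. They were led by Nr4a1 (61.4-fold in stimulated Tconv and 95.3-fold in stimulated Treg), Nr4a3 (48.2-fold and 89.0-fold) and Egr2 (48.7-fold and 69.8-fold). The NF-kB subunit genes had a region at 5 of 5 in every list, led in stimulated Treg by Nfkb1 (64.2-fold), Rel (61.2-fold) and Nfkb2 (52.3-fold). Of all protein-coding genes, 16.5% had a region in stimulated Tconv, 25.2% in stimulated Treg, 12.5% in unstimulated Tconv and 13.4% in unstimulated Treg. Whether the shares differ between these sets was not tested.

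**Figure D4:**
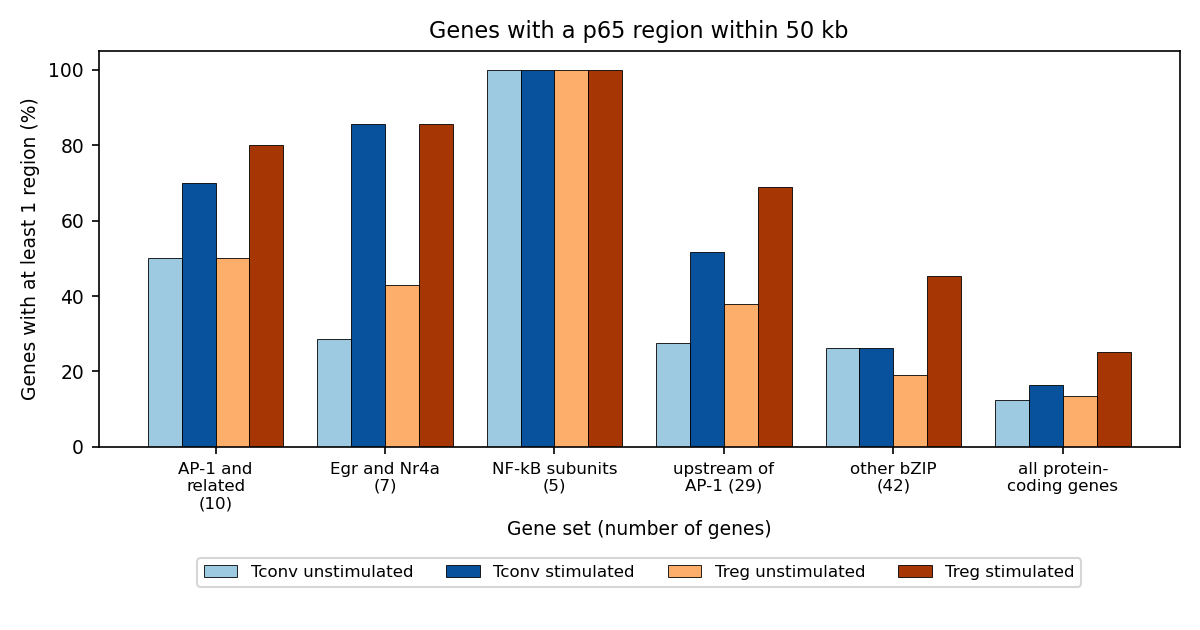
Percent of genes with at least 1 region in each list, for the 10 AP-1 and related genes, 4 further gene sets and all protein-coding genes, with the number of genes in brackets. The 10 genes stand at 50% without stimulation in both cell types and at 70% and 80% after it, and all genes at 12.5% to 25.2%.

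Over the 4 lists, the genes with values most like those of Fos were Prkch (a protein kinase C gene), Tox (a nuclear factor gene) and Itpkb (an inositol trisphosphate kinase gene). Likeness was the Euclidean distance between log2(1 + fold of the strongest region) over 4 values, with 0 for a list without a region, among 6332 genes with a region. The distances were 0.28, 0.31 and 0.33. Tox had 6.24-fold, 47.0-fold, 6.14-fold and 70.3-fold in unstimulated Tconv, stimulated Tconv, unstimulated Treg and stimulated Treg. With 4 values per gene many genes are alike, and this is a description.

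Some regions close to the 10 genes were assigned to a nearer neighbour. The one nearest to a member in all lists was that of Hook2, 7.25 to 7.47 kb from Junb, with 4.57-fold in unstimulated Tconv, 13.5-fold in stimulated Tconv, 9.03-fold in unstimulated Treg and 23.2-fold in stimulated Treg. Near Fosb, stimulated Tconv had 3 and stimulated Treg 2 regions of Vasp, 30.4 to 36.5 kb away, with 13.9-fold to 21.7-fold. Regions of Ercc1 near Fosb, Rnaseh2a near Junb, Lsm4 near Jund and Babam2 near Fosl2 had 6.86-fold to 9.64-fold. Which gene a region acts on was not measured.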

How the data were processed

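The data are p65 ChIP-seq libraries, 2 for each of 4 immunoprecipitated groups and 2 of input, 10 in all. The submitters' processing notes list build mm10, the read trimmer Trim Galore 0.4.1, the aligner BWA 0.7.15-r1140 and the peak caller MACS2 2.1.1.20160309. Per the names of the deposited lists, replicates were pooled, blacklisted regions removed and peaks filtered by a conservative IDR (reproducibility) step. The use of the input was not given in the sources used here. Each summit's deposited fold enrichment, a ratio to its local background, is the authors' value, as is the deposited −log10 p. The deposited score equals 10 times the −log10 p within 1 unit in 100% of entries. Deeper libraries raise the −log10 p and the number of entries.

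Overlapping entries were merged, and each region was assigned by its strongest summit to the nearest of 21887 protein-coding gene bodies within 50 kb (RefSeq, GRCm38.p6, the coordinates of mm10). A counterpart overlapped by at least 1 bp. The 10 genes and all gene and marker lists were chosen with earlier results of these data known. The rule for names took all 10 genes, at most 3 genes per further list by fold in stimulated Treg, the 3 genes most like the one with the strongest stimulated region, and neighbours with regions within 50 kb. Where regions of neighbours were many, they were given by their range. Jdp2, Cd79a and Klrb1c were named after their values were seen, and a further marker gene is not reported here. Start sites came from RefSeq's promoter table, which held 9 of the 10 genes, Fosl1 being the other. Motifs at summits were not analysed here. The code was checked on the stimulated Treg list. Overlap was checked with randomly shifted copies of its regions, assignment against a direct search, and merging for regions that still overlapped. Python 3.11.15, pandas 2.3.3, NumPy 2.4.6, SciPy 1.17.1 and matplotlib 3.10.9 were used.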

Additional observations from a re-analysis of the deposited data

How the results depend on the processing

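Of 104 values recomputed under other settings, 92 stayed within 1.5 times the count or inside the interval of the share, and 12 did not. Assignment within 200 kb moved none. Within 10 kb, 3 genes in place of 5 had a region in unstimulated Treg. With every gene within 50 kb counted, unstimulated Treg had 10 regions in place of 6. At a common lowest −log10 p of 38.1, and in the upper 50% of each list, unstimulated Tconv had 3 genes with a region and 3 regions, in place of 5 and 5, and 0 of 3 (0%) in place of 1 of 5 had no unstimulated Treg counterpart. Without merging, the unstimulated lists held 8 entries in Tconv and 10 in Treg. For all these settings the shares over all genes and regions were not recomputed. Whether the 10 genes moved differently from all genes is therefore not known. With a reciprocal overlap of 50%, 88.2% of stimulated Tconv regions had no unstimulated counterpart (74.7% of all regions), and 60% of unstimulated Tconv regions (3 of 5) had no stimulated one (51.0% of all). The other windows planned for motifs at summits were not run. No replicate could be left out and no paired analysis was possible because each list pools the libraries of its group. The unstimulated counts are small, and the lists give no read numbers.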

Other observations

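Where a locus had a region in both stimulated lists, the strongest summits of Tconv and Treg lay 1 to 243 bp apart (median 14.5 bp at 16 loci, against 14.0 bp over all 5333 pairs of regions with a single counterpart). The unstimulated lists placed them 2 to 20 bp apart (4 loci). Between unstimulated and stimulated lists the median distances were longer at these genes. In Tconv the median was 159 bp at 5 loci, against 23.0 bp over all 1886 pairs, and in Treg it was 114 bp at 6 loci, against 30.0 bp over all 2500 pairs. At the Fos locus upstream of the gene the unstimulated summits lay 159 bp (Tconv) and 137 bp (Treg) from the stimulated ones, and at Junb 88 and 91 bp. The Fosb promoter went the other way, with 18 bp in Tconv and 21 bp in Treg, below the medians over all pairs. At Jund the strongest summits lay 1940 bp apart in Tconv and 1717 bp apart in Treg, at the far end of the gene without stimulation and inside it with stimulation, and each list had entries at both places. By median, the regions at these genes were also wider than all regions in every list. Without stimulation it was 1138 bp in Tconv and 1045 bp in Treg, against 859 and 872 bp over all regions. With stimulation it was 1709 bp in Tconv and 1440 bp in Treg, against 1218 and 966 bp. More than 1 summit was held by 2 of the 5 unstimulated Tconv regions (40.0%, against 5.47% of all). In unstimulated Treg it was 1 of 6 (16.7%, against 6.7%). With stimulation it was 3 of 17 in Tconv (17.6%, against 11.0%) and 4 of 26 in Treg (15.4%, against 14.7%). Whether width or summit number enters the distances was not tested. With 5 and 6 loci and no replicate lists, these distances are a description.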
